A study of Saccharomyces cerevisiae with 18 samples.

Results

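The genes described here are the cyclins of the budding yeast cell cycle kinase Cdc28 and the gene of the Cdc28 inhibitor Sic1: CLN1 (YMR199W), CLN2 (YPL256C), CLN3 (YAL040C), CLB1 (YGR108W), CLB2 (YPR119W), CLB3 (YDL155W), CLB4 (YLR210W), CLB5 (YPR120C), CLB6 (YGR109C) and SIC1 (YLR079W). They were chosen by name, and all 10 were found among 6334 ORF entries and remained among the 6013 ORFs left after a filter on input. The study measured by ChIP-seq where RNA Pol II, through its subunit Rpb3, and the stress kinase Hog1 were located in Saccharomyces cerevisiae of the W303 background in logarithmic growth. Each culture was treated for 5 min with KCl at a final concentration of 0.4 M (osmotic shock) or with the same volume of YEPD medium (mock), and there was 1 library for each strain, treatment and target. Rpb3 was precipitated untagged in Δhog1 (listed as Dhog1::HIS3), in Δsko1Δhot1 and in wild type, and Hog1 was precipitated through HOG1-3HA at the endogenous locus in Δsko1Δhot1 and in wild type. The Δsko1Δhot1 strain listed in the study carries Dsko1::LEU2 and Dhot1::URA3 together with HOG1-3HA, and input and a mock IP were made in wild type only.

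Cdc28 acts only when bound to a cyclin. Cln3 acts first in G1 and leads to transcription of CLN1 and CLN2, whose products commit the cell to division, Clb5 and Clb6 drive S phase, and Clb1 to Clb4 drive mitosis. Sic1 binds and inhibits the Clb kinases until it is phosphorylated and degraded at the end of G1. Hog1 is known to delay the cycle in G1 and in G2 upon osmotic stress, by acting on Sic1 and on cyclin transcription in G1 and on the Hsl7 and Swe1 pathway in G2.

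All values are a coverage signal per ORF, scaled to ORF length and to the total of the library, so that more or less RNA Pol II below means a larger or smaller share of a library's signal, and a change of the total between conditions would not be seen. With 1 library per condition no difference has a replicate check, no test was possible, and the folds and counts describe these libraries. The cultures were not synchronised, so that fewer cells in one phase of the cycle and less RNA Pol II per cell cannot be told apart.

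The labels of the deletion strains were checked at HOG1 and HOT1, and SKO1 was not analysed here. Rpb3 signal over HOG1 was 1240 in KCl and 667 in YEPD in Δhog1, against 20500 in KCl and 18700 in YEPD in wild type. Over HOT1 it was 1060 in KCl and 569 in YEPD in Δsko1Δhot1, against 7820 in KCl and 6350 in YEPD in wild type. Over the marker gene HIS3 it was 17900 in KCl and 12300 in YEPD in Δhog1, against 16000 and 24800 in wild type. Over the marker gene LEU2 it was 7510 in KCl and 8880 in YEPD in Δsko1Δhot1, against 31300 and 39600 in wild type. The source of these differences at the marker genes was not tested. The libraries differed in range: the 99th percentile of ORFs stood at 8.31 times the median ORF in KCl and 6.49 times in YEPD in Δhog1, against 13.4 and 12.6 times in wild type. Median Rpb3 signals lay between 7200 and 8260 in the 6 libraries. What part this difference in range has in the values below was not tested.

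CLN2 and CLN3 had the highest RNA Pol II occupancy of the 10 genes in wild type, and the Clb genes the lowest. CLN2, a G1 cyclin of the start of the cycle, had an Rpb3 signal of 16900 in KCl and 30700 in YEPD in wild type, at percentiles 88.7 and 94.3 of all ORFs. CLN3, the upstream G1 cyclin, had 31600 in KCl and 29000 in YEPD, at percentiles 96.0 and 93.9. CLN1, the close relative of CLN2, had 12900 in KCl and 18600 in YEPD. These 3 genes and SIC1, with 14000 in KCl and 15100 in YEPD, were above the input signal of the same ORF in both wild-type libraries. Of the S phase cyclins, CLB5 had 4960 in KCl and 7590 in YEPD, and CLB6 had 3840 in KCl and 4630 in YEPD. CLB6 was the lowest of the 10 genes in both wild-type libraries, at percentiles 9.11 and 20.7.

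Of the mitotic cyclins in wild type, CLB1 had 6810 in KCl and 9830 in YEPD. CLB2, the main mitotic cyclin, had 5280 in KCl and 8740 in YEPD. CLB3 had 10100 in KCl and 12200 in YEPD, and CLB4 had 5050 in KCl and 5540 in YEPD. Thus 8 of the 10 genes were above the median ORF in YEPD and 5 were above it in KCl, and the 3 that were on the other side of the median in KCl were CLB1, CLB2 and CLB5. The order of the levels in YEPD was CLN2, CLN3, CLN1, SIC1, CLB3, CLB1, CLB2, CLB5, CLB4 and CLB6, and without replicates it is not known which neighbours in it differ beyond their spread.

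**Figure D1:**
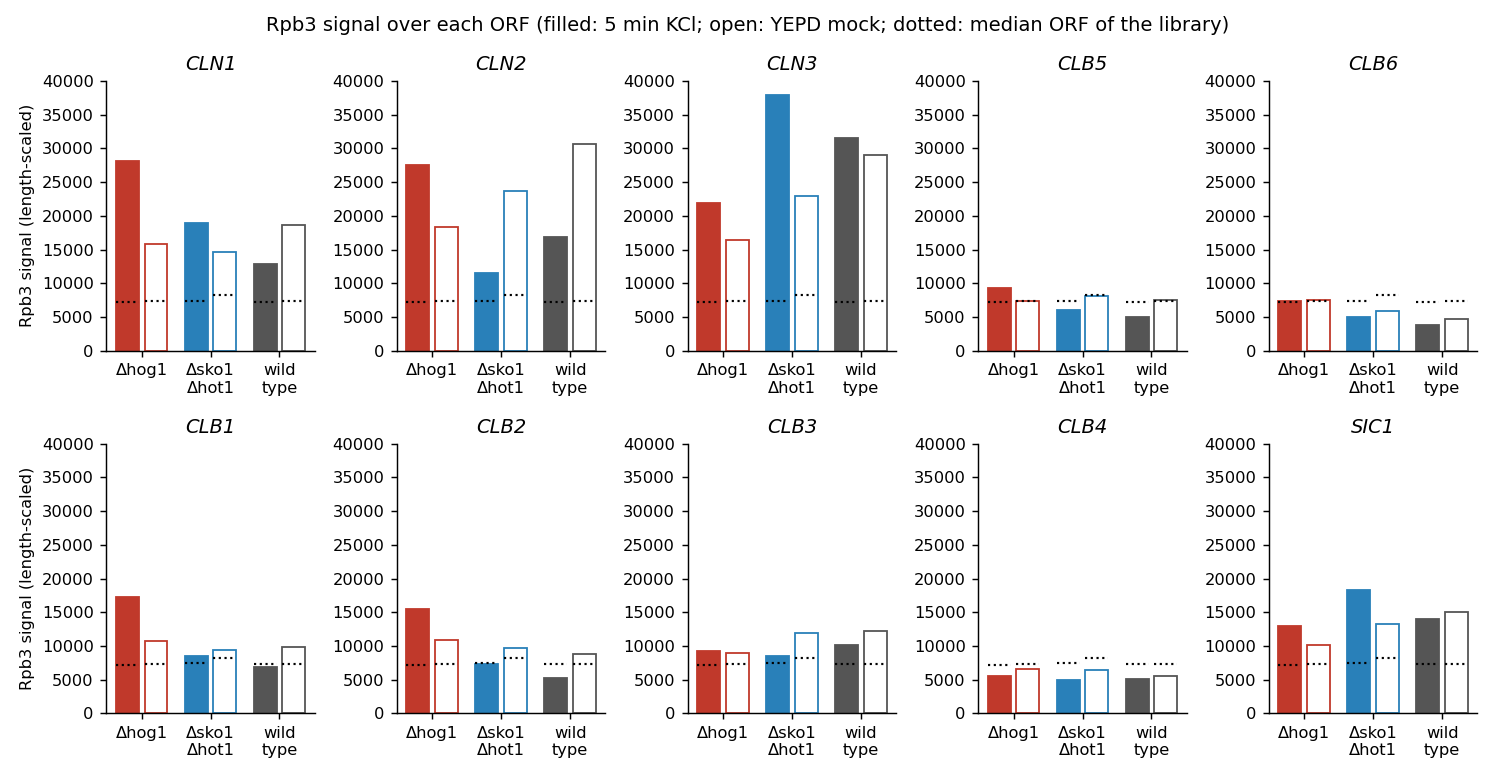
Rpb3 signal (length-scaled coverage) over each of the 10 ORFs in Δhog1, Δsko1Δhot1 and wild type, with 1 bar per library, filled for 5 min of KCl and open for the YEPD mock, and a dotted line at the median ORF of each library. In KCl, CLB1 stood at 17200 in Δhog1 and 6810 in wild type, and CLB2 at 15500 in Δhog1 and 5280 in wild type.

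Upon osmotic shock in wild type, 9 of the 10 genes had less RNA Pol II in KCl than in YEPD, beside 45.7% of all ORFs, and CLN3 was the exception. The log2 fold, KCl over YEPD with 989 added to each signal, was -0.82 at CLN2 and -0.50 at CLN1, the pair of G1 cyclins that act at the start of the cycle, and 0.12 at CLN3. It was -0.53 at CLB5 and -0.22 at CLB6. Among the mitotic cyclins it was -0.63 at CLB2, -0.47 at CLB1, -0.25 at CLB3 and -0.11 at CLB4, and it was -0.10 at SIC1. None of the 10 reached a 2-fold change, which 4.44% of the 6013 ORFs reached upward and 7.7% reached downward. The median of the 10 genes was -0.36, beside 0.04 over all ORFs. CLB1, CLB2, CLB4, CLB5 and CLB6 lay below the input signal in both wild-type libraries, so that with input subtracted and values below it set to 0 only 4 genes had a fold below 0, 1 was above it and the median was 0.0. The size of these values was within the range of many other ORFs: CLN2, the lowest, stood at percentile 9.85 of all folds and CLB2 at 13.3.

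Input and mock IP of wild type were compared in the same way at the 10 genes. Input gave log2 folds between -0.15 and 0.22, and the mock IP between -0.21 and 0.39. At CLN2 the log2 fold was 0.07 in input and 0.05 in the mock IP, and at CLB2 it was 0.13 in input and -0.10 in the mock IP. The highest values of both were at SIC1, which had 7830 in KCl and 5760 in YEPD in the mock IP.

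In Δhog1 the G1 cyclins and the CLB1 and CLB2 pair had more RNA Pol II after osmotic shock than in the mock. CLN1 had a signal of 28200 in KCl and 15800 in YEPD, a log2 fold of 0.80, at percentile 98.1 of all ORFs. CLN2 had 27500 in KCl and 18400 in YEPD, a log2 fold of 0.56. CLN3 had 21900 in KCl and 16400 in YEPD, a log2 fold of 0.40. In wild type, CLN1 and CLN2 had the opposite sign.

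Of the mitotic cyclins in Δhog1, CLB1 had 17200 in KCl and 10700 in YEPD, a log2 fold of 0.64, and CLB2 had 15500 in KCl and 10900 in YEPD, a log2 fold of 0.47. CLB3 had 9290 in KCl and 8900 in YEPD, a log2 fold of 0.06, and CLB4 had 5620 in KCl and 6520 in YEPD, a log2 fold of -0.18. The paralogs CLB3 and CLB4 thus stayed nearer to 0 than CLB1 and CLB2, as they did in wild type. Of the S phase cyclins, CLB5 had 9360 in KCl and 7300 in YEPD, a log2 fold of 0.32, and CLB6 had 7320 in KCl and 7590 in YEPD, a log2 fold of -0.05. Both lay below wild-type input in both treatments, and with input subtracted both folds were 0.0. SIC1 had 13000 in KCl and 10100 in YEPD, a log2 fold of 0.34.

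In Δhog1 too, no gene of the 10 reached 2-fold without subtraction of input, beside 0.998% of all ORFs upward and 0.0665% downward. With 8 of the 10 above 0, beside 41.7% of all ORFs, the median was 0.37, beside -0.05. CLN1, CLB1, CLN2, CLB2 and CLN3 stood at percentile 91.2 or above among all folds in this strain.

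**Figure D2:**
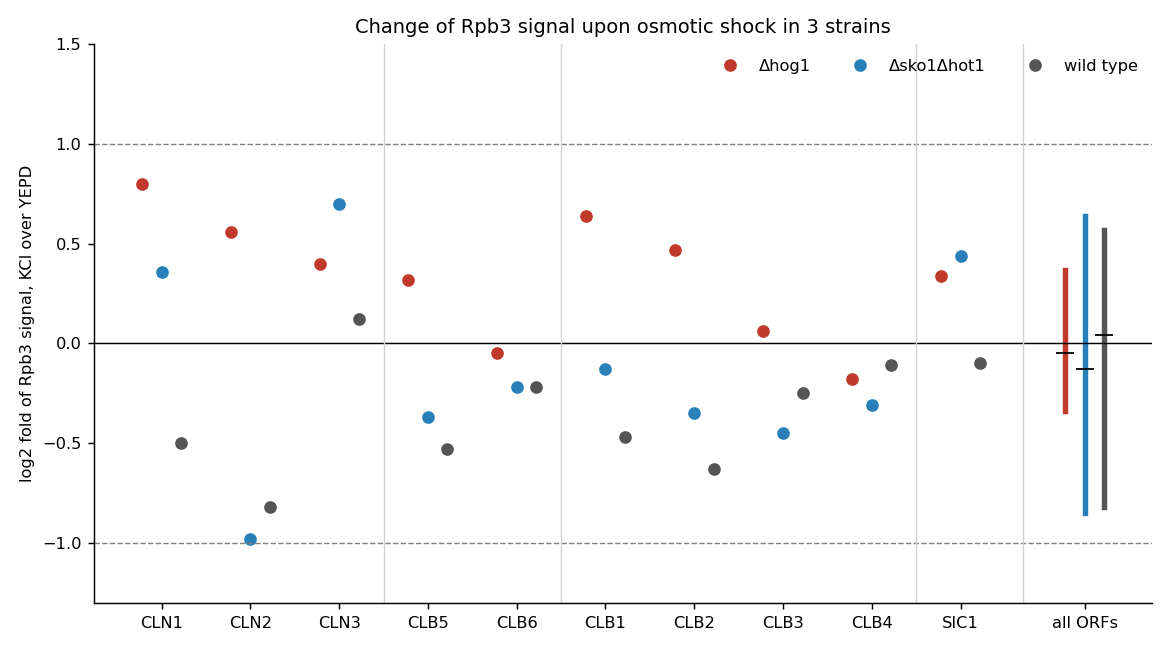
Log2 fold of Rpb3 signal, KCl over YEPD, at each gene in Δhog1, Δsko1Δhot1 and wild type (1 point per strain), with the 10th to 90th percentile (bar) and the median (tick) of all ORFs at the right and dashed lines at 2-fold. CLN1, CLB1, CLB2 and CLB5 are highest in Δhog1 and lowest in wild type, and no point lies past a dashed line.

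The difference of the folds of the 2 strains was then taken, a comparison added after the values had been seen. Δhog1 minus wild type gave 1.38 at CLN2, 1.29 at CLN1, 1.11 at CLB1 and 1.11 at CLB2 on the log2 scale, so that 4 of the 10 genes were 2-fold apart or more in this direction, beside 9.03% of all ORFs, and none in the other, beside 4.59%. The difference was 0.85 at CLB5, 0.44 at SIC1, 0.31 at CLB3, 0.28 at CLN3, 0.17 at CLB6 and -0.07 at CLB4. The count of 4 depends on the constant added to the signal and was 2 with a constant 5 times as large. Mock-treated Δhog1 entered this difference too: there CLN2 had a log2 fold of -0.71, Δhog1 over wild type, and CLN1 of -0.22.

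**Figure D3:**
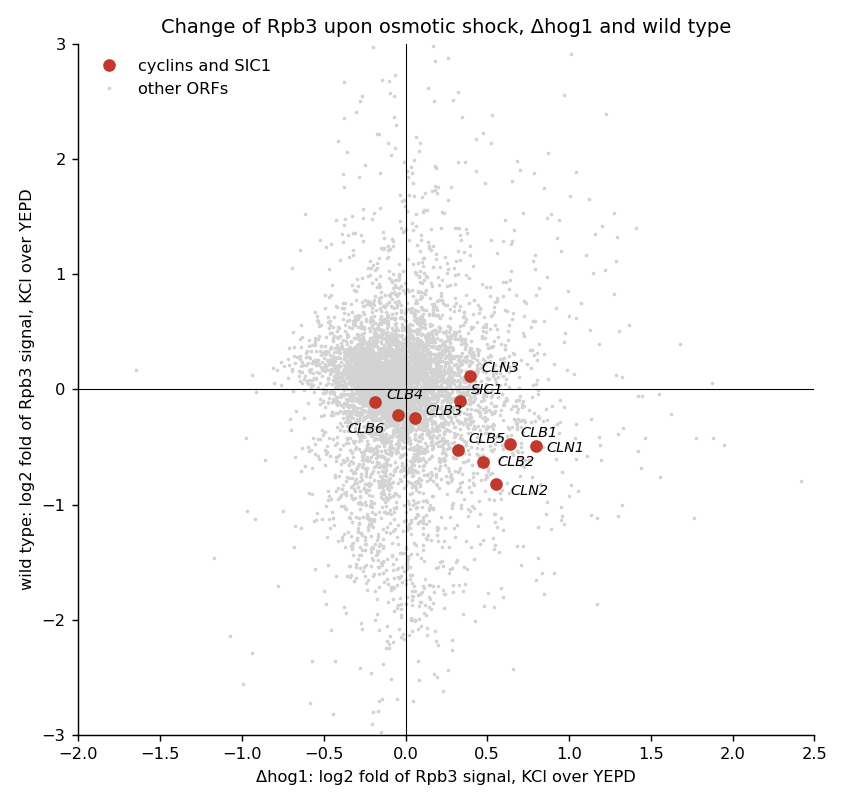
Log2 fold of Rpb3 signal, KCl over YEPD, in Δhog1 (horizontal) and in wild type (vertical), 1 point per ORF, with the cyclin genes and SIC1 in red; 49 ORFs lie outside the axes. CLN1, CLN2, CLB1 and CLB2 lie at the lower right, at 0.47 to 0.80 in Δhog1 and -0.82 to -0.47 in wild type.

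The strains were also compared directly within each treatment. In KCl, CLB2 (15500 in Δhog1, 5280 in wild type), CLB1 (17200 in Δhog1, 6810 in wild type) and CLN1 (28200 in Δhog1, 12900 in wild type) were more than 2-fold higher in Δhog1, with log2 folds of 1.40, 1.22 and 1.07. These are 3 of the 10 genes, beside 5.32% of all ORFs, and none was 2-fold lower, beside 4.92%. All 3 fell short of 2-fold when the added constant was 5 times as large. CLB5 (9360 in Δhog1, 4960 in wild type), CLB6 (7320 in Δhog1, 3840 in wild type) and CLN2 (27500 in Δhog1, 16900 in wild type) had log2 folds of 0.80, 0.78 and 0.67. CLB5 and CLB6 lay below wild-type input in both strains, and with input subtracted their folds were 0.0. CLB4, SIC1 and CLB3 lay between -0.11 and 0.13, and CLN3, with 21900 in Δhog1 and 31600 in wild type, had a log2 fold of -0.51. The median over the 10 genes was 0.73, beside 0.0 over all ORFs.

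In mock-treated cells, no gene of the 10 was 2-fold apart between Δhog1 and wild type, beside 1.46% of ORFs higher and 4.72% lower, and their median was -0.14, beside 0.02. CLN3 (16400 in Δhog1, 29000 in wild type), CLN2 (18400 in Δhog1, 30700 in wild type) and SIC1 (10100 in Δhog1, 15100 in wild type) had the lowest log2 folds, -0.79, -0.71 and -0.54. CLB6, with 7590 in Δhog1 and 4630 in wild type, had the highest, 0.61. It lay below wild-type input in both strains, and with input subtracted its log2 fold was 0.0. CLB1 and CLB2, which were over 2-fold higher in Δhog1 in KCl, had log2 folds of 0.11 and 0.29 in YEPD.

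Sko1 and Hot1 are DNA-binding transcription factors through which Hog1 acts at stress genes. In Δsko1Δhot1, CLN2 had the largest change of the 10 genes upon osmotic shock, with 11500 in KCl and 23700 in YEPD, a log2 fold of -0.98 that stood just short of 2-fold. CLN3 went the other way, with 37900 in KCl and 23000 in YEPD, a log2 fold of 0.70, and CLN1 had 19000 in KCl and 14600 in YEPD, a log2 fold of 0.36. SIC1 had 18300 in KCl and 13200 in YEPD, a log2 fold of 0.44. The 3 G1 cyclins thus did not share a direction in this strain.

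The 6 Clb genes in Δsko1Δhot1 had log2 folds between -0.45 at CLB3 and -0.13 at CLB1. CLB5 had 6050 in KCl and 8100 in YEPD, and CLB6 had 4930 in KCl and 5900 in YEPD. CLB1 had 8480 in KCl and 9370 in YEPD, CLB2 had 7360 in KCl and 9630 in YEPD, CLB3 had 8550 in KCl and 12000 in YEPD, and CLB4 had 5010 in KCl and 6450 in YEPD. All 6 were thus below 0, as in wild type, beside 61.9% of all ORFs. None of the 10 genes reached 2-fold, beside 6.12% of ORFs higher and 7.98% lower, and their median was -0.26, beside -0.13.

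Set against wild type, Δsko1Δhot1 had no gene of the 10 at 2-fold in either treatment. In KCl the log2 folds lay between -0.52 at CLN2 and 0.53 at CLN1, where 1.53% of all ORFs were 2-fold higher and 1.13% lower. In YEPD they lay between -0.36 at CLN2 and 0.29 at CLB6, where 0.299% of ORFs were 2-fold higher and 0.399% lower. The difference of the shock folds, Δsko1Δhot1 minus wild type, was largest at CLN1, 0.85, and under 2-fold at all 10 genes, beside 1.51% of ORFs 2-fold up and 1.26% down.

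The profile of each gene over the 6 Rpb3 libraries, in log2 and centred on the median ORF of each library and then on its own mean, had its largest standard deviations at CLN2 (0.50), CLB2 (0.48) and CLN3 (0.43, as at CLB1 after rounding). CLB4 (0.12) and CLB3 (0.18) had the smallest. The ORFs outside the 10 genes whose profile was nearest to CLN2 were ERG13, which encodes an enzyme of the mevalonate pathway, PGA3 and MYG1, at Euclidean distances of 0.30, 0.33 and 0.36. Nearest to CLB2 were YNL146C-A, CYC1, the gene of cytochrome c, and YOR314W, at 0.18, 0.27 and 0.29. Nearest to CLN3 were CAM1, ENV9 and RHO1, the gene of a GTPase of cell wall signalling, at 0.15, 0.17 and 0.18.

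CLB1 and CLB6 are neighbours that point towards each other, and so are CLB2 and CLB5, in the order of genes of the R64 reference. In Δhog1 the log2 fold upon osmotic shock was 0.64 at CLB1 and -0.05 at its neighbour CLB6, and it was 0.47 at CLB2 and 0.32 at CLB5. On the other side, VOA1 next to CLB1 had -0.01 and MRI1 next to CLB2 had -0.04. Next to CLN1, CIK1, which encodes a partner of a kinesin motor, had 0.60 and ROT1 had 0.13. CIK1 was also 1.21 higher on the log2 scale in Δhog1 than in wild type in KCl, beside 1.07 at CLN1. CYC3, next to CLN3, had log2 folds of Δhog1 over wild type of -1.24 in KCl and -1.68 in YEPD, beside -0.51 and -0.79 at CLN3.

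Hog1 enrichment did not set the cyclin genes or SIC1 apart from other ORFs. Hog1 enrichment, the Hog1 signal minus the mock IP signal, divided by input, lay between 0.418 at CLB6 and 0.707 at CLB1 in KCl in wild type, with a median of 0.573, beside 0.497 over all ORFs. The value at CLB1 stood at percentile 86.1. In YEPD it lay between 0.257 and 0.965, with a median of 0.610, beside 0.561. The cutoff of the study's methods, 3 standard deviations above the median ORF, was 1.59 in KCl, and was passed by none of the 10 genes and by 1.1% of all ORFs. The Hog1 signal itself was between 10500 and 16000 in KCl, against a cutoff of 31000 that 1.01% of ORFs passed. The ratio of KCl to YEPD was between 0.859 and 1.09, against a cutoff of 2.01 that 0.782% passed. All 3 criteria together were met by 29 ORFs or 0.482%, none of them among the 10, and none of the 10 is marked as occupied by Hog1 in the deposited table.

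**Figure D4:**
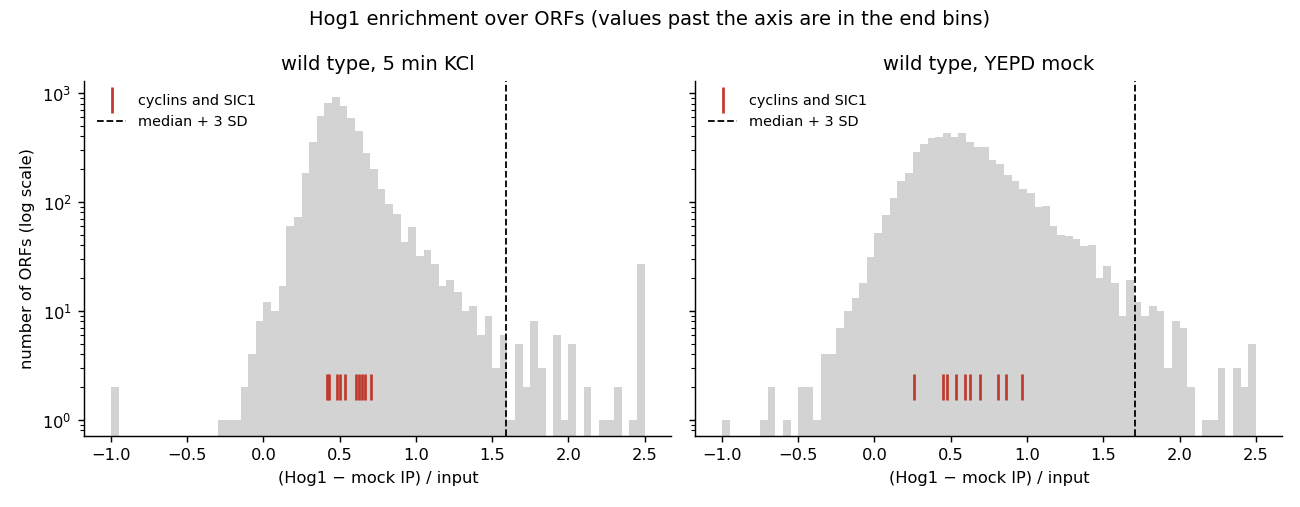
Number of ORFs (log scale) by Hog1 enrichment, the Hog1 signal minus mock IP over input, in wild type after 5 min of KCl (left) and in YEPD (right), with the cyclin genes and SIC1 as red ticks and the cutoff as a dashed line. The red ticks lie at 0.418 to 0.707 in KCl and 0.257 to 0.965 in YEPD, within the bulk of ORFs and below the cutoffs of 1.59 and 1.71.

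Gene by gene, Hog1 signal in wild type was close in both treatments. At SIC1, whose product Hog1 is known to phosphorylate, it was 15500 in KCl and 14200 in YEPD, a log2 fold of 0.12 and the highest of the 10. Input and mock IP were also higher in KCl at SIC1, with log2 folds of 0.22 and 0.39. Divided by input, the log2 fold of Hog1 at SIC1 was -0.10, and with the mock IP subtracted it was -0.12. Hog1 enrichment at SIC1 was 0.667 in KCl and 0.864 in YEPD. At CLN2 the Hog1 signal was 14000 in KCl and 16300 in YEPD, a log2 fold of -0.21 and the lowest. At CLN1 it was 15500 in KCl and 15000 in YEPD, and at CLB2 14500 in KCl and 14400 in YEPD. No gene was 2-fold apart, beside 0.748% of ORFs higher and 0.2% lower.

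In Δsko1Δhot1 the Hog1 libraries were lower over most ORFs. In KCl the log2 fold against wild type was between -0.71 and -0.09 at the 10 genes, with a median of -0.41, beside -0.38 over all ORFs, and in YEPD it was between -0.98 and 0.0, with a median of -0.40, beside -0.38. CLB6 was lowest in both, with 6040 in KCl and 4930 in YEPD in Δsko1Δhot1, against 10500 and 10700 in wild type. In KCl none was 2-fold apart, beside 0.116% of ORFs higher and 2.48% lower, nor in YEPD, beside 0.0166% higher and 6.47% lower. Between KCl and YEPD within Δsko1Δhot1 the log2 folds lay between -0.38 at CLN2 and 0.25 at CLB6, with none at 2-fold, beside 1.3% of ORFs higher and 0.283% lower. Since mock IP and input were made in wild type only, enrichment was not set between the strains, and their subtraction is given only as an alternative setting.

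The deposited promoter table covers 1 kb upstream of each ORF, but its column heads go against its values: the column headed as wild-type input had 207000 in KCl and 23100 in YEPD at GPD1, a gene of glycerol synthesis induced by osmotic stress, while the column headed as Hog1 in wild type had 8820 and 3450. Values are therefore given only as headed. In the column headed input the 10 promoters had between 7970 and 16200 in KCl and between 8160 and 15500 in YEPD, with log2 folds of -0.30 to 0.31. In the column headed Hog1 in wild type the log2 folds were -0.28 to 0.32. Under either head no promoter of the 10 was 2-fold apart, beside 1.27% of 6609 promoters under each. The same held under the heads of Hog1 in Δsko1Δhot1, beside 0.454% of promoters, and of the mock IP, beside 0.0%.

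The genes around the cyclins in the cycle were described from 6 lists, without the 10 genes. Of 16 genes of Cdc28 and its direct regulators, none was 2-fold higher (4.44% of all ORFs) and 1 was 2-fold lower (7.7% of all ORFs) in wild type upon osmotic shock, with a median of -0.16, beside 0.04 over all ORFs. That gene was FAR1, whose product inhibits the Cln kinases, with a log2 fold of 0.81 in Δhog1, -0.98 in Δsko1Δhot1 and -1.19 in wild type. In KCl FAR1 was 1.68 higher on the log2 scale in Δhog1 than in wild type, above all 10 cyclin and inhibitor genes. CDC28 itself, the gene of the kinase, had -0.16 in Δhog1, 0.42 in Δsko1Δhot1 and 0.76 in wild type, opposite to most of its cyclins. CDC20, an activator of the anaphase-promoting complex, had 0.18 in Δhog1 and -0.68 in wild type, and the polo kinase gene CDC5 had -0.06 in Δhog1 and -0.53 in wild type.

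Genes of the G1/S transition, transcribed through the factors SBF and MBF as CLN1, CLN2, CLB5 and CLB6 are, had a median log2 fold of 0.17 in Δhog1, -0.30 in Δsko1Δhot1 and -0.30 in wild type, beside -0.05, -0.13 and 0.04 over all ORFs in these strains. Of 27 such genes, 5 were 2-fold higher and none lower in Δhog1, beside 0.998% and 0.0665% of all ORFs. In Δsko1Δhot1 none was higher and 2 were lower, beside 6.12% and 7.98%, and in wild type none was higher and 1 was lower, beside 4.44% and 7.7%. Counted by sign, 15 of the 27 were above 0 and 12 below in Δhog1, beside 41.7% of all ORFs above. In wild type 3 were above 0 and 24 below, beside 45.7% of all ORFs below. RNR1, the large subunit gene of ribonucleotide reductase, had 0.36 in Δhog1, -1.27 in Δsko1Δhot1 and -1.54 in wild type. YOX1, a repressor gene that is also on the list of transcription factors, had 1.06 in Δhog1 and -0.88 in wild type, and SVS1 had 1.01 in Δhog1 and -0.83 in wild type. HO, the gene of the mating type endonuclease, had 0.28 in Δhog1, -1.43 in Δsko1Δhot1 and -0.76 in wild type. The other 3 genes that were 2-fold higher in Δhog1, named after their values were seen, were PCL2 at 1.63, GIC2 at 1.11 and PCL1 at 1.04.

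Genes of the CLB2 cluster, which are transcribed in G2 and M as CLB1 and CLB2 are, stayed within 2-fold upon osmotic shock. Of 16, none was 2-fold higher or lower in the 3 strains. Among all ORFs, 0.998% were higher and 0.0665% lower in Δhog1, 6.12% and 7.98% in Δsko1Δhot1, and 4.44% and 7.7% in wild type. The medians were -0.10 in Δhog1, -0.26 in Δsko1Δhot1 and -0.15 in wild type, beside -0.05, -0.13 and 0.04 over all ORFs. In wild type 13 of the 16 were below 0 and 3 above, beside 45.7% of all ORFs below. In KCl 14 of the 16 were higher in Δhog1 than in wild type and 2 lower, beside 49.3% of all ORFs higher. Their median log2 fold was 0.25, beside 0.0. CDC20 and CDC5 are also on this list. ALK1 had -0.31 in Δhog1 and -0.52 in wild type, and the kinase gene KIN3 had -0.04 in Δhog1 and -0.41 in wild type. These 4 genes were named for the size of their fold in wild type. In Δhog1 the highest of the 16 was HST3, named after its value was seen, with 0.53, beside 0.64 at CLB1 and 0.47 at CLB2.

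The other 3 lists had no gene past 2-fold in wild type, beside 4.44% of all ORFs higher and 7.7% lower. Of 16 transcription factor genes of the cell cycle, 1, YOX1, was 2-fold higher in Δhog1, beside 0.998% of all ORFs, with medians of -0.10 in Δhog1 and -0.20 in wild type. YHP1, the paralog of YOX1, had 0.70 in Δhog1 and -0.59 in wild type. FKH2, the gene of a forkhead factor, had -0.20 in Δhog1 and -0.52 in wild type. STB1, a partner of SBF and MBF, had 0.15 in Δhog1 and -0.48 in wild type. The cyclins of another kinase, Pho85, had medians of 0.03 in Δhog1 and 0.12 in wild type over 10 genes. Of these, 2 were 2-fold higher in Δhog1, beside 0.998% of all ORFs. They were PCL1 and PCL2, which are also on the G1/S list. Of this list, CLG1 had 0.02 in Δhog1 and -0.52 in wild type, PCL5 had 0.49 in Δhog1 and 0.50 in wild type, PCL8 had -0.07 in Δhog1 and 0.46 in wild type, and PCL6 had -0.08 in Δhog1 and 0.39 in wild type. Of 20 genes of replication licensing, none was past 2-fold in Δhog1, beside 0.998% of all ORFs higher and 0.0665% lower. The medians of these 20 were -0.16 in Δhog1 and -0.09 in wild type. MCM7 had -0.17 in Δhog1 and -0.54 in wild type, ORC2 had -0.14 in Δhog1 and -0.18 in wild type, and ORC5 had -0.06 in Δhog1 and -0.16 in wild type. CDC6, which also inhibits mitotic Cdc28, had 0.66 in Δhog1, 0.18 in Δsko1Δhot1 and -0.47 in wild type.

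**Figure D5:**
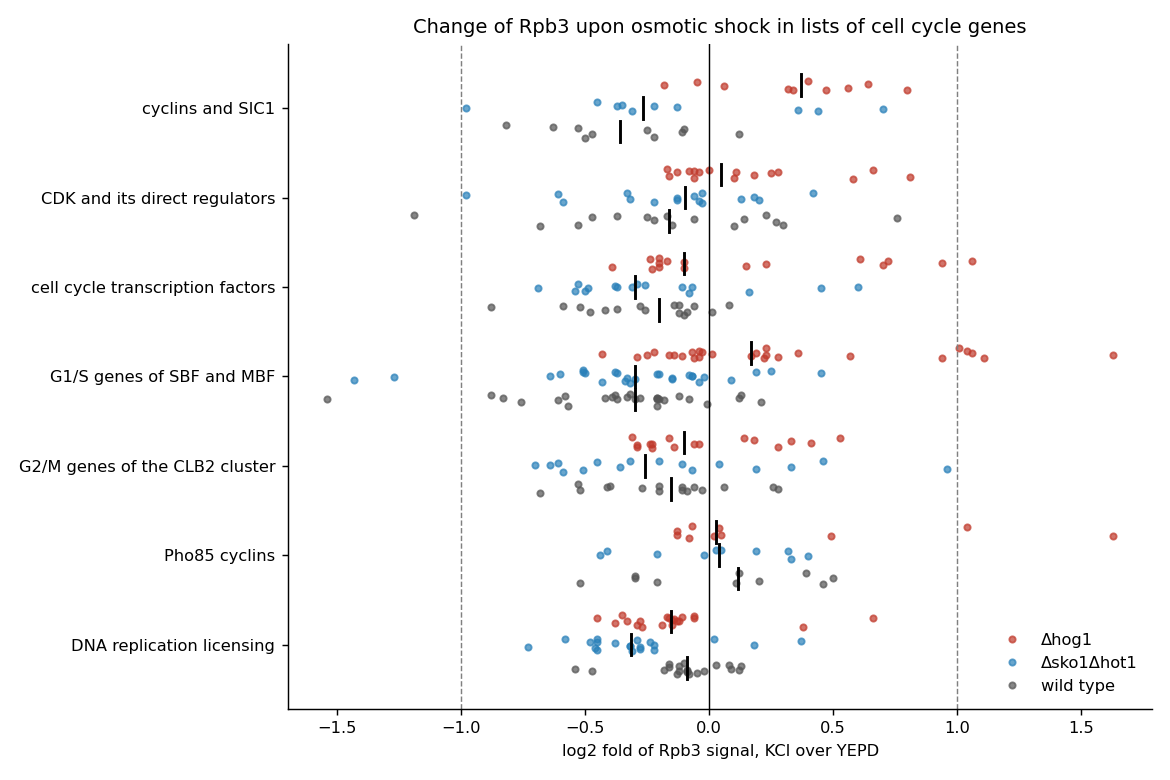
Log2 fold of Rpb3 signal, KCl over YEPD, for each gene of the cyclins and SIC1 and of 6 lists of cell cycle genes, in Δhog1 (top of each row), Δsko1Δhot1 and wild type (bottom), with a black tick at each median and dashed lines at 2-fold; some genes are on several lists. The median of the 10 cyclin and inhibitor genes was 0.37 in Δhog1, -0.26 in Δsko1Δhot1 and -0.36 in wild type, and that of the G1/S genes was 0.17 in Δhog1, -0.30 in Δsko1Δhot1 and -0.30 in wild type.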

How the data were processed

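The authors deposited a table of ORFs with a coverage signal per ORF and library, normalised by ORF length and library total and named RPKM by them. The submitters' processing notes name Bowtie and the sacCer2 build, with versions not given in the sources used here. The study's supporting methods name another aligner, ELAND, and which of them gave the deposited values is not known. Only unique tags and the parts of an ORF not shared with another were used, which matters for paralogs such as CLN1 and CLN2. The 14 libraries of that table were used. Read totals per library are not given in the sources used here, so no counting interval was computed.

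Of 6334 entries, 4 that share a name were left out, and then the 5% with the lowest YEPD input, as in the study's methods. Log2 folds were computed with pandas 2.3.3 in Python 3.11.15, with 989 (0.1 times the median YEPD input) added to both signals, which makes folds of weakly occupied ORFs smaller. Changes are those of 2-fold or more. Scripts were tested on simulated data. Alternatives were other constants, no filter, centring on the median ORF, division by or subtraction of wild-type input, subtraction of the mock IP, other Hog1 cutoffs, and a 1.5-fold threshold.

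The 10 genes and the 6 lists were chosen with earlier results of these data known. The genes named are the 10 genes, up to 4 per list with the largest fold in wild type, the 3 nearest profiles of the 3 most variable genes, neighbours, deleted genes and marker genes. Named outside this rule, after their values were seen, were PCL1, PCL2, GIC2, HST3 and GPD1. WHI5 was left out by the filter, and 1 further list is not reported here. The Sko1 and Hot1 peaks and the downstream table were not used here. The R64 reference served for names and gene order only.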

Additional observations from a re-analysis of the deposited data

Results flagged for a closer look

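At 4 genes the change of Rpb3 signal upon osmotic shock had opposite signs in Δhog1 and wild type and lay 2-fold or more apart. A difference of this size and direction was found at 9.03% of all ORFs, whatever the signs. The difference of the log2 folds, Δhog1 minus wild type, was 1.38 at CLN2, 1.29 at CLN1, 1.11 at CLB1 and 1.11 at CLB2. The log2 fold was 0.56 in Δhog1 and -0.82 in wild type at CLN2, 0.80 in Δhog1 and -0.50 in wild type at CLN1, 0.64 in Δhog1 and -0.47 in wild type at CLB1, and 0.47 in Δhog1 and -0.63 in wild type at CLB2. With a constant 5 times as large, the difference fell short of 2-fold at CLB1 (0.83) and CLB2 (0.79), which leaves 2 genes. CLB1 and CLB2 also lay below the input signal in both wild-type libraries. After subtraction of input their wild-type log2 folds were 0.0, so that no opposite sign remained at these genes. At CLN1 and CLN2 the signs stayed opposite at that setting. With 1 library per strain and treatment the difference was not tested.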

How the results depend on the processing

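No paired analysis was possible because each condition had 1 library, and for the same reason no library could be left out. Settings that gave another count of the 10 genes at 2-fold are given here with the share of all ORFs at that setting. With a 1.5-fold threshold, Rpb3 upon osmotic shock gave 2 in Δhog1 (5.84%), 2 in Δsko1Δhot1 (27.1%) and 2 in wild type (24.1%), Δhog1 over wild type gave 6 in KCl (23.3%) and 3 in YEPD (23.5%), and Hog1 in Δsko1Δhot1 over wild type gave 3 in KCl (15.8%) and 3 in YEPD (28.2%). The difference of shock folds then gave 5 for Δhog1 minus wild type (30.9%) and 1 for Δsko1Δhot1 minus wild type (10.0%). With wild-type input subtracted, which sets values below input to 0, Rpb3 upon osmotic shock gave 4 in Δhog1 (9.56%), 2 in Δsko1Δhot1 (29.0%) and 3 in wild type (24.3%). Δhog1 over wild type gave 4 in KCl (22.1%) and 5 in YEPD (22.0%), Δsko1Δhot1 over wild type gave 3 in KCl (14.1%), and the differences of shock folds gave 6 for Δhog1 (27.4%) and 3 for Δsko1Δhot1 (16.5%). Hog1 then gave 3 upon osmotic shock in Δsko1Δhot1 (30.6%), and 9 in KCl (70.8%) and 7 in YEPD (54.7%) in Δsko1Δhot1 over wild type, and with the mock IP subtracted 5 in KCl (57.1%) and 6 in YEPD (47.8%). Input and mock IP were made in wild type only, so that these counts for Δsko1Δhot1 rest on controls of another strain. With a constant of 0.5 times the median input, Δhog1 over wild type in KCl gave 0 (6.4%) and the difference of shock folds, Δhog1 minus wild type, gave 2 (8.51%). With 0.02 times it was 1 in Δsko1Δhot1 upon osmotic shock (15.5%) and 1 for Hog1 in Δsko1Δhot1 over wild type in YEPD (8.53%). Division by input gave 1 in Δsko1Δhot1 upon osmotic shock (13.8%), and centring on the median ORF gave 1 for the difference of shock folds, Δsko1Δhot1 minus wild type (3.44%). Of the 10 genes, 0 passed all Hog1 criteria with a cutoff of 2 SD (0.815% of ORFs), with the median absolute deviation (1.95%) and with division by the mock IP (0.0998%). Without the input filter no ORF passed them, so that this setting says nothing about the genes. No fold past 2-fold changed sign. Read totals are not given per library, so that small folds cannot be set against counting error.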
